A study of Mus musculus with 67 samples.

Results

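The HoxA cluster genes were examined across 14 RNA-seq libraries of mouse forelimb buds. The members are the 10 genes Hoxa2, Hoxa3, Hoxa4, Hoxa5, Hoxa6, Hoxa7, Hoxa9, Hoxa10, Hoxa11 and Hoxa13, chosen by their gene name in the expression tables, and they make up 10 of 46983 gene IDs. All of them lie on the minus strand of chromosome 6, and 98.5 kb separate the first base of Hoxa2 from the last base of Hoxa13 (chr6:52162417-52260880, mm10). The libraries fall into 4 groups on a Swiss Webster background. Whole forelimb buds at E9.25 (21 to 23 somites), before Hedgehog (HH) signalling begins in the limb, came from WT embryos (n = 3) and from embryos homozygous for the Gli3 Xt-J allele, called Gli3-/- (n = 4). The anterior part of forelimb buds at E10.5, after HH signalling begins, was taken from WT (n = 4) and Gli3-/- embryos (n = 3). Each library pooled tissue, about 4 pairs of forelimbs for the earlier stage and 2 pairs for the later one, as the sample records state. The comparison of genotypes at each stage asks whether loss of GLI3, the main GLI repressor of the limb bud, changes expression before and after HH signalling begins. The stages also differ in the tissue taken, whole bud against anterior part, and stage and tissue cannot be told apart.

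HOX proteins are homeodomain transcription factors that give cells their position along the body axis and along the limb. In a HOX cluster the genes sit in the order in which they are switched on: genes at the 3′ end start early and are used in anterior or proximal tissue, and genes at the 5′ end start late and are used in posterior or distal tissue. In the limb, the paralog groups at the 5′ end pattern successive segments, with Hoxa10 acting in the upper limb, Hoxa11 in the forearm and Hoxa13 in the hand and foot. HOX proteins bind DNA with cofactors of the TALE homeobox family, the MEIS and PBX proteins, and retinoic acid and FGF signals act on both groups of genes along the limb.

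Promoter sequence was read from RefSeq windows of GRCm38.p6, the build that mm10 names, which were found for 9 of the 10 members in 10 windows. Hoxa10 had 2 windows, and Hoxa4 had none. The 250 bases before the start site are given here for 4 genes from opposite ends of the cluster, which moved in opposite directions at E10.5: Hoxa2 (chr6:52164832-52165081), the more internal start of Hoxa10 (chr6:52234940-52235189), Hoxa11 (chr6:52245811-52246060) and Hoxa13 (chr6:52260881-52261130), all 5′ to 3′ on the minus strand. Capitals mark a match to one of the motifs searched.
Hoxa2: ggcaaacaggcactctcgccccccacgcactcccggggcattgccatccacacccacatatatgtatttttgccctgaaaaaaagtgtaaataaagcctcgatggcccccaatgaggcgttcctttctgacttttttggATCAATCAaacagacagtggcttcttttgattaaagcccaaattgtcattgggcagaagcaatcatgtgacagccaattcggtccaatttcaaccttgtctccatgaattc
Hoxa10: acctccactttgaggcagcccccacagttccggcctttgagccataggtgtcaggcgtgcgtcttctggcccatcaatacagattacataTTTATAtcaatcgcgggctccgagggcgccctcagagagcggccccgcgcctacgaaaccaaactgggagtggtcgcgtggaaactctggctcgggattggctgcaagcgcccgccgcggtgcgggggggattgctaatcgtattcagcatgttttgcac
Hoxa11: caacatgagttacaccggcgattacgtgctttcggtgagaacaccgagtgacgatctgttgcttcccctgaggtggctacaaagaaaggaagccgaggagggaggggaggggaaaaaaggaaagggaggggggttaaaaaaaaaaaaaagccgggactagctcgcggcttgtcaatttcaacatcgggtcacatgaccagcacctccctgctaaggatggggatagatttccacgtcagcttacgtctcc
Hoxa13: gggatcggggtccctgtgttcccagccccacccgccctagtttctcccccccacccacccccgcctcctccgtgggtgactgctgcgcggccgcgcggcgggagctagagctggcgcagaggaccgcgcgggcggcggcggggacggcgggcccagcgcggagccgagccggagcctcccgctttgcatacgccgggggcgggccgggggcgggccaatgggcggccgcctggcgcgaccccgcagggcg

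The motifs were searched on both strands in the whole windows, which run on to 50 bases after the start. A HOX with PBX motif, TGATTGAT, was found in 1 of the 10 HoxA windows, that of Hoxa2, and in 0.746% of all 32851 windows of the same length. The TATA box letters TATAAA were found in 1 HoxA window, the internal start of Hoxa10, and in 13.6% of all windows. The GLI motif GACCACCCA, the group 13 motif CCAATAAA and the second HOX with PBX motif TGATTTAT were found in 0 HoxA windows, and in 0.253%, 1.12% and 0.977% of all windows. The windows of the members held 45.7% to 81.0% G and C, with a median of 56.5% against 52.7% over all windows. The window of Hoxa13 was the richest of the 10, with 45 CpG sites, against a median of 17.5 for the HoxA windows and 7 for all windows.

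Expression was read as TPM, transcript abundance that the authors scaled for gene length and to the same total in each library, so that levels can be set side by side between genes. Libraries held an estimated 38.1 to 56.8 M reads, and a TPM of 1 stood for 20.7 to 29.3 reads per kilobase. Gli3 itself, the check of the genotype labels, fell in Gli3-/- buds at E10.5 (38.7 to 40.9 TPM against 73.4 to 89.7, limma adjusted p = 0.000335). At E9.25 it had 14.3 to 20.8 TPM in Gli3-/- libraries and 44.2 and 44.6 TPM in WT replicates 1 and 3, but at 15.8 TPM the library labelled WT replicate 2 lay within the Gli3-/- range, and the difference did not pass the test (limma adjusted p = 0.223). HoxA counts, cluster shares and list counts that use this library are also given without it, for the lists and shares as an alternative chosen after seeing the data. Differences were tested with limma on log2(TPM + 1), and adjusted p-values are Benjamini-Hochberg values over all genes tested in a comparison, with a threshold of 0.05. The median gene was 0.23 higher in Gli3-/- than in WT at E9.25 on the log2 scale and, in WT, 0.34 higher in the later than in the earlier stage, while it moved by -0.02 between genotypes at E10.5. In bulk tissue, fewer cells with a transcript and less of it per cell cannot be told apart. Whether reads were counted by strand is not stated, and the library kit is not described as stranded. Of the 10 members, 8 overlap another listed gene, so reads of Hoxa3 and of the Hoxa4, Hoxa5 and Hoxa6 genes within its span, and of Hoxa11 and its antisense RNA, may be shared.

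The order of the levels within the cluster differed between the stages. At E9.25, Hoxa5 had the highest mean TPM of the 10 members in both genotypes, with 49.4 ± 6.47 (SD, n = 3) for WT and a higher 65.7 ± 4.48 (SD, n = 4) for Gli3-/-. In E9.25 WT buds Hoxa9 (36.3 TPM) and Hoxa7 (29.3 TPM) came next with ranges that did not overlap their neighbours', whereas the neighbours from Hoxa10 (12.4 TPM) through Hoxa4, Hoxa3, Hoxa2 and Hoxa11 to Hoxa6 (5.79 TPM) had overlapping ranges. In E9.25 Gli3-/- buds the neighbours Hoxa7, Hoxa4, Hoxa3, Hoxa9 and Hoxa2 overlapped in range, from mean levels of 23.4 to 10.9 TPM. In E10.5 anterior buds Hoxa10 led in both genotypes, at 118 ± 6.50 TPM (SD, n = 4) for WT and 163 ± 5.99 TPM (SD, n = 3) for Gli3-/-. Next came Hoxa9 (87.6 TPM) and Hoxa11 (67.2 TPM) in WT, and Hoxa11 (118 TPM) and Hoxa9 (89.3 TPM) in Gli3-/-, with no overlap between any of these neighbours. Hoxa13 was last in both E9.25 groups and in E10.5 WT, and reached a mean of 24.1 TPM in E10.5 Gli3-/-, where its range overlapped that of Hoxa7.

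**Figure D1:**
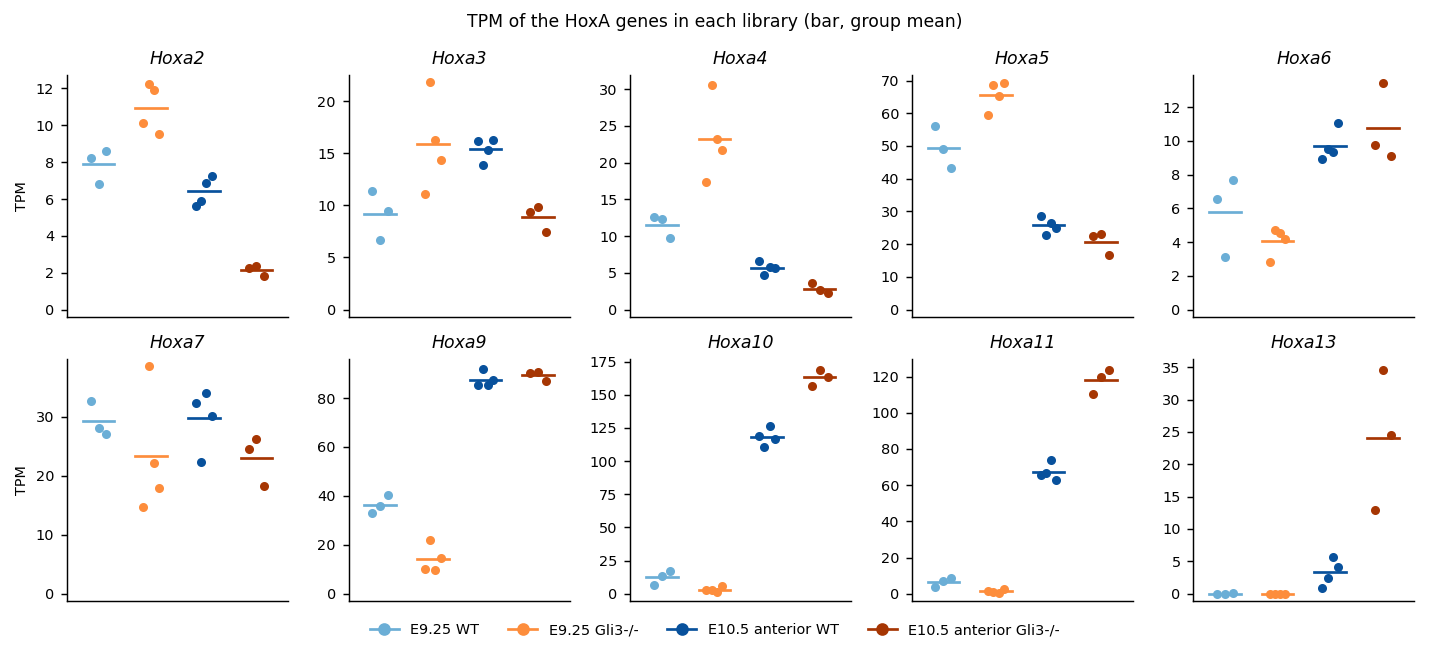
TPM of each HoxA gene (vertical axes, linear, starting at 0 and with their own scale in each panel) in the 14 libraries; each point is a library, colours are the 4 groups and bars are group means. Hoxa2 and Hoxa4 are highest in E9.25 Gli3-/- and lowest in E10.5 anterior Gli3-/- libraries, and Hoxa10, Hoxa11 and Hoxa13 are highest in E10.5 anterior Gli3-/- libraries.

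Before HH signalling, the genes at the 3′ end of the cluster had higher mean levels in Gli3-/- than in WT buds and the genes from Hoxa6 on had lower ones, but no member passed the test. Among 14760 genes tested, 0.108% were called higher and 0.0271% lower, and of the HoxA genes 0 of 9 tested were called in either direction. At an unadjusted p under 0.05, 7 of the 9 members would count, against 3247 of all genes. Hoxa13 was not tested, since the 4 Gli3-/- libraries and 2 of 3 WT libraries list it at 0, and WT replicate 3 had 0.0626 TPM.

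The 3′ genes Hoxa2 to Hoxa5 belong to the groups used in the hindbrain, the neck and the anterior trunk. Hoxa4 had 12.7, 12.4 and 9.70 TPM in WT and 17.4, 30.6, 23.3 and 21.8 TPM in Gli3-/- buds. The groups did not overlap, and the log2 fold change was 0.93 ± 0.20 (SE, limma adjusted p = 0.143). Hoxa2 had 8.25, 6.80 and 8.59 TPM in WT and 10.1, 12.2, 11.9 and 9.52 TPM in Gli3-/- buds, again without overlap, with a log2 fold change of 0.43 ± 0.18 (SE, limma adjusted p = 0.220) that came to 0.20 relative to the median gene. Hoxa5 ranged from 43.2 to 56.1 TPM in WT and from 59.5 to 69.2 TPM in Gli3-/- buds, with a log2 fold change of 0.41 that came to 0.18 relative to the median gene. Hoxa3, with 6.66 to 11.4 TPM in WT and 11.1 to 21.8 TPM in Gli3-/- buds, overlapped between the groups.

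At the 5′ end the levels lay on the other side. Hoxa9, which acts with its paralogs when limb position and polarity are set up, had 32.8, 35.8 and 40.2 TPM in WT and 10.3, 21.8, 9.55 and 14.6 TPM in Gli3-/- buds. Every WT library exceeded every Gli3-/- library, with a log2 fold change of -1.37 ± 0.25 (SE, limma adjusted p = 0.0800), the smallest adjusted p of the members at this stage. Hoxa10 had 6.35, 13.7 and 17.1 TPM in WT and 2.77, 3.00, 1.03 and 5.69 TPM in Gli3-/- buds, a log2 fold change of -1.73 ± 0.41 (SE, limma adjusted p = 0.147). Hoxa11 had 3.55, 6.94 and 8.83 TPM in WT and 1.27, 0.834, 0.419 and 2.78 TPM in Gli3-/- buds, a log2 fold change of -1.70 ± 0.36 (SE, limma adjusted p = 0.133). In both genes the groups were apart, and WT replicate 1 came closest to the Gli3-/- range. In the middle of the cluster, Hoxa6 and Hoxa7 overlapped between genotypes, with Hoxa7 spread from 14.7 to 38.7 TPM among the Gli3-/- libraries.

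In all, 3 of the 9 tested members were higher in Gli3-/- without overlap of the groups, where 9.97% of all genes tested were, and 3 were lower without overlap, where 3.36% were. Without E9.25 WT replicate 1, Hoxa9, Hoxa10 and Hoxa11 passed the test as lower, 3 members in all. That fit called 196 of 14541 genes, against 20 of 14760 with all libraries. Leaving out Gli3-/- replicate 2 or replicate 4 called 1 member each, Hoxa9 and Hoxa11, and leaving out E9.25 WT replicate 2 called 0. Over all genes, these fits called 14 of 14500, 67 of 14571 and 18 of 14690. Without that library the log2 fold change of Hoxa6 went from -0.37 to -0.70, and those of the other 8 tested members kept their sign, from -1.62 for Hoxa11 to 0.98 for Hoxa4. A single model of all 14 libraries called 4 members, Hoxa4 as higher and Hoxa9, Hoxa10 and Hoxa11 as lower, among 796 of 16368 genes called. Of the flank and lateral plate markers, 2 of 8 tested were called higher in Gli3-/- at this stage and none lower, Foxf1 by 3.68 ± 0.43 and Gata4 by 2.87 ± 0.35 (log2, SE, limma adjusted p = 0.0125 and 0.0128), and the summed level of the list was 32.5 to 75.6 TPM in WT and 89.3 to 236 TPM in Gli3-/- buds. The other 6 did not pass, with Hand1 at 2.18 and Tbx18 at -0.35 (log2, limma adjusted p = 0.152 and 0.361), and Foxf2 was the 1 marker of the 9 at 0 in all WT libraries. Foxf1 had 0.221 to 2.80 TPM in WT and 12.1 to 35.5 TPM in Gli3-/- buds. It met the filter only through the Gli3-/- libraries, so its calls, with or without E9.25 WT replicate 2, add no support. Beside the counts of these lists, 0.108% of all genes were called higher and 0.0271% lower. Endothelial markers were 0 of 7 called, with a summed level of 93.5 to 153 TPM in WT and 166 to 243 TPM in Gli3-/- buds and none at 0, and neural markers were 0 of 1 called, with 6.03 to 12.6 and 2.77 to 4.74 TPM and Olig2 at 0 in all WT libraries. Posterior limb bud genes had 1 of 4 called higher, Ptch1, with a summed level of 52.3 to 103.4 TPM in WT and 117 to 187 TPM in Gli3-/- buds, where Shh was at 0. Without E9.25 WT replicate 2, Foxf1, Gata4 and Ptch1 were again the genes called in these lists, at 3.35, 2.97 and 1.89 (log2, limma adjusted p = 0.0197 for each). The part of these cells in the HoxA levels was not tested.

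After HH signalling begins, the direction along the cluster was the other way round, and 6 of the 10 members passed the test. In anterior E10.5 buds Hoxa2, Hoxa3 and Hoxa4 fell in Gli3-/- and Hoxa10, Hoxa11 and Hoxa13 rose. Of 15654 genes tested, 2.93% were called lower and 1.84% higher. The 3 members that fell and the 3 that rose were also those whose groups did not overlap, which held for 11.5% of all genes on the lower and 7.87% on the higher side.

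Hoxa13, the 5′ gene needed for the digits, had 0.828, 2.49, 5.73 and 4.09 TPM in WT and 12.98, 34.6 and 24.6 TPM in Gli3-/- anterior buds. All Gli3-/- libraries lay above the highest WT library, and both groups were widely spread for their means, with a log2 fold change of 2.60 ± 0.44 (SE, limma adjusted p = 0.0107). Hoxa11 had 65.6, 66.5, 73.9 and 62.6 TPM in WT and 110, 120 and 124 TPM in Gli3-/- buds, with little spread in either group and a log2 fold change of 0.80 ± 0.08 (SE, limma adjusted p = 0.000643). Hoxa10 rose less, from 119, 110, 126 and 117 TPM to 157, 169 and 164 TPM, a log2 fold change of 0.46 ± 0.07 (SE, limma adjusted p = 0.00456). Hoxa9, its next neighbour in the cluster, had 85.3 to 92.0 TPM in WT and 87.0 to 90.5 TPM in Gli3-/- buds, so that the groups overlapped and the log2 fold change was 0.03 ± 0.06 (SE, limma adjusted p = 0.847).

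Hoxa2 had 5.63, 5.91, 6.89 and 7.22 TPM in WT and 2.25, 2.39 and 1.83 TPM in Gli3-/- buds. Its log2 fold change of -1.23 ± 0.13 (SE, limma adjusted p = 0.00109) was the furthest below 0 of the members. Hoxa3 had 16.2, 13.9, 15.3 and 16.3 TPM in WT and 9.39, 9.83 and 7.46 TPM in Gli3-/- buds, a log2 fold change of -0.74 ± 0.11 (SE, limma adjusted p = 0.00691). Hoxa4 had 6.63, 4.76, 5.81 and 5.73 TPM in WT and 3.67, 2.62 and 2.29 TPM in Gli3-/- buds, a log2 fold change of -0.81 ± 0.16 (SE, limma adjusted p = 0.0191). These 3 genes were lower in every Gli3-/- library than in any WT library. Hoxa5, Hoxa6 and Hoxa7 overlapped between the genotypes and did not pass the test, with log2 fold changes of -0.31, 0.12 and -0.35.

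Hoxa4 missed the threshold when WT replicate 1 or 4 or Gli3-/- replicate 2 or 3 was left out. Without a filter on low genes 4 members passed, and in a single model of all 14 libraries 3 passed, Hoxa2 and Hoxa4 as lower and Hoxa13 as higher. The posterior limb bud genes moved with genotype here: 5 of 7 were called higher and none lower, with a summed level of 62.8 to 87.4 TPM in WT and 211 to 370 TPM in Gli3-/- buds. The anterior limb bud genes went the other way, with 5 of 6 tested called lower and a summed level of 141 to 217 TPM in WT and 36.9 to 53.1 TPM in Gli3-/- buds. Shh was at 0 in all 4 WT libraries and met the filter only through the Gli3-/- libraries, where it is high. Beside the counts of these lists, 1.84% of all genes were called higher and 2.93% lower. Of the limb mesenchyme markers, 1 of 7 was called higher and 5 lower, with a summed level of 996 to 1231 TPM in WT and 748 to 782 TPM in Gli3-/- buds and no gene at 0. Surface ectoderm markers, which include Fgf8 of the apical ridge, had 1 of 7 called higher, Fgf8 itself, and summed to 188 to 234 and 276 to 311 TPM, and somite and muscle markers had 1 of 5 called higher, Meox2, and summed to 60.8 to 75.2 and 76.1 to 100 TPM, with no gene of either list at 0 in all libraries of a group. The part of these shifts in the HoxA levels was not tested.

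**Figure D2:**
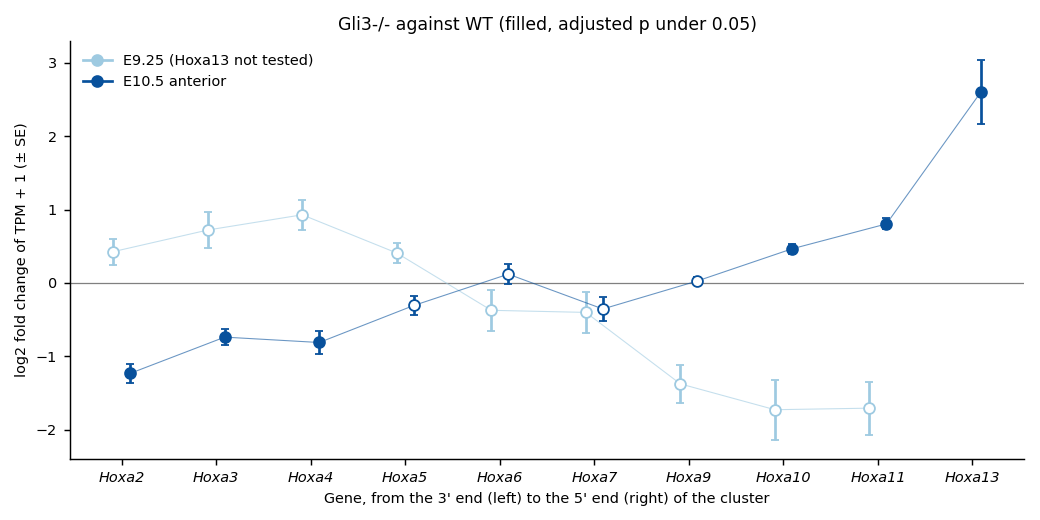
Log2 fold change of TPM + 1 between Gli3-/- and WT buds (vertical axis) for the HoxA genes in cluster order (horizontal axis) at E9.25 and in E10.5 anterior buds; bars are limma standard errors and filled points passed the test. At E9.25 the values run from 0.43 at Hoxa2 to -1.70 at Hoxa11 with no filled point, and at E10.5 from -1.23 at Hoxa2 to 2.60 at Hoxa13.

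The difference between the stages was tested as the interaction of stage and genotype in all 14 libraries, which asks whether the genotype difference at E10.5 departs from that at E9.25. It was lower at E10.5 for Hoxa2, Hoxa3 and Hoxa4 and higher for Hoxa9, Hoxa10, Hoxa11 and Hoxa13, so that 7 of 10 members passed, 3 lower and 4 higher. Over 16368 genes, 1.65% were called lower and 0.477% higher, and the median gene moved by -0.24. The change was -1.66 ± 0.20 for Hoxa2 and -1.74 ± 0.26 for Hoxa4, and 2.19 ± 0.46 for Hoxa10 and 2.51 ± 0.40 for Hoxa11 (log2, SE, limma adjusted p = 0.000685, 0.00276, 0.0219 and 0.00433). Relative to the median gene these were -1.42, -1.50, 2.43 and 2.75. Hoxa9 passed at 1.40 ± 0.28 (SE, limma adjusted p = 0.0171), with its difference at E9.25 rather than at E10.5. Hoxa13, at 2.63 ± 0.51 (SE, limma adjusted p = 0.0154), was at or near 0 in every E9.25 library, so its value is that of E10.5. It met the filter only through the E10.5 libraries, so its call adds no support. Hoxa5 missed the threshold at -0.71 ± 0.18 (SE, limma adjusted p = 0.0570). The count fell to 4 when replicate 3 of E10.5 Gli3-/- was left out, and Hoxa3, Hoxa10 and Hoxa13 were lost, and without a filter on low genes it was also 4. It was 5 without E9.25 WT replicate 3, which lost Hoxa9 and Hoxa10, and 6 without E9.25 WT replicate 2, E10.5 WT replicate 4 or E10.5 Gli3-/- replicate 2, each of which lost Hoxa10. Without replicate 1 of either E9.25 group Hoxa5 passed too, which made 8. In the same interaction 5 of 8 flank markers were called lower, among them Foxf1 at -3.59 and Gata4 at -2.99 (log2), with 2 lower without E9.25 WT replicate 2. Foxf1 met the filter only through the E9.25 Gli3-/- libraries, where it is high, so its call adds no support. Of the posterior limb bud genes 3 of 7 were called higher, Shh, Hoxd12 and Hoxd13. Among these, Shh and Hoxd12 met the filter only through the E10.5 Gli3-/- libraries, where they are high, so their calls add no support. Of the anterior limb bud genes 4 of 6 were called lower, and the posterior and anterior counts were the same without E9.25 WT replicate 2. Pax1, 1 of these 4, met the filter only through the E10.5 WT libraries, where it is high, so its call adds no support. The part of these cells in the HoxA values was not tested. Across the members, Spearman's rho between position in the cluster and log2 fold change was -0.917 for genotype at E9.25 (n = 9 genes) and 0.927 at E10.5 (n = 10 genes). These genes come from the same libraries and are neighbours, so the values are descriptions only.

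From E9.25 to E10.5 anterior WT buds, the genes at the 5′ end rose most, Hoxa4 and Hoxa5 fell, and 8 of 10 members passed the test. The WT libraries at each stage are also those of the genotype comparisons, so these values stand beside the earlier ones without adding to them. Of 15444 genes tested, 38.1% were called higher and 10.6% lower, so a rise in itself was common at this contrast. The 6 members that rose were Hoxa3, Hoxa6, Hoxa9, Hoxa10, Hoxa11 and Hoxa13. Hoxa10 went from 6.35 to 17.1 TPM in the E9.25 libraries to 110 to 126 TPM, a log2 fold change of 3.25 ± 0.26 (SE, limma adjusted p = 8.85e-05). Hoxa11 went from 3.55 to 8.83 TPM to 62.6 to 73.9 TPM, a log2 fold change of 3.26 ± 0.23 (SE, limma adjusted p = 5.62e-05). Hoxa9 rose by 1.25 ± 0.10 and Hoxa13, near 0 at E9.25, by 1.91 ± 0.39 on the log2(TPM + 1) scale. Hoxa13 met the filter only through the E10.5 libraries, where it is higher, so its call adds no support. The 2 members that fell were Hoxa4 (-0.90 ± 0.16) and Hoxa5 (-0.91 ± 0.12), or -1.24 and -1.25 relative to the median gene. Hoxa3 and Hoxa6 rose by 0.72 and 0.72, which came to 0.38 and 0.39 relative to the median gene, and with quantile normalization neither passed. Hoxa2 and Hoxa7 did not pass, with log2 fold changes of -0.26 and 0.01, and Hoxa2 was called lower under quantile normalization and under size factors. Hoxa6 missed the threshold without E9.25 WT replicate 2 or without any one of the E10.5 WT libraries, and without E10.5 WT replicate 2, 3 or 4 Hoxa13 fell below the filter as well, which left 6 members. Of the flank markers 5 of 7 were called lower and 1, Tbx18, higher (median -1.85 against 0.34 for all genes), and their summed level was 32.5 to 75.6 TPM at E9.25 and 37.9 to 61.0 TPM at E10.5, where Foxf2 and Wt1 were at 0 in all libraries. Of the somite and muscle markers 4 of 5 were called higher and 1 lower, with a summed level of 21.1 to 22.5 TPM, where Myf5 was at 0, and of 60.8 to 75.2 TPM. Without E9.25 WT replicate 2, 2 of 4 flank markers still tested were called lower and 1 higher, and the somite and muscle counts were the same. The part of these cells in the HoxA values was not tested.

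In Gli3-/- buds 9 of 10 members passed between the stages, all but Hoxa7. Hoxa13 is among them, but it met the filter only through the E10.5 libraries, where it is high, so its call adds no support. Of 15434 genes tested, 15.8% were called higher and 9.17% lower. Hoxa11 went from 0.419 to 2.78 TPM at E9.25 to 110 to 124 TPM at E10.5, a log2 fold change of 5.77 ± 0.28 (SE, limma adjusted p = 5.32e-07). Hoxa10 went from 1.03 to 5.69 TPM to 157 to 169 TPM, a log2 fold change of 5.44 ± 0.31 (SE, limma adjusted p = 1.62e-06). Hoxa13 was listed at 0 in all 4 libraries at E9.25 and reached 12.98 to 34.6 TPM, and no fold change is given. Hoxa9 rose by 2.65 ± 0.23 and Hoxa6 by 1.22 ± 0.19 on the log2 scale. All 4 of the 3′ genes fell, Hoxa4 by 2.64, Hoxa2 by 1.92, Hoxa5 by 1.63 and Hoxa3 by 0.74 on the log2 scale, whereas in WT Hoxa3 had risen. Hoxa3 lost its call without E9.25 Gli3-/- replicate 3 or any one of the E10.5 Gli3-/- libraries. Hoxa7, which sits between these groups of genes, had overlapping ranges at the stages, 14.7 to 38.7 and 18.3 to 26.2 TPM. Of the flank markers 7 of 8 were called lower and 1, Tbx18, higher (median -3.99 against 0.06 for all genes), with summed levels of 89.3 to 236 TPM at E9.25 and 29.1 to 41.8 TPM at E10.5. Of the somite and muscle markers 4 of 5 were called higher and 1 lower, with summed levels of 17.8 to 26.6 and 76.1 to 100 TPM. Neither list had a gene at 0 in all libraries of a group, and the part of these cells in the HoxA values was not tested.

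**Figure D3:**
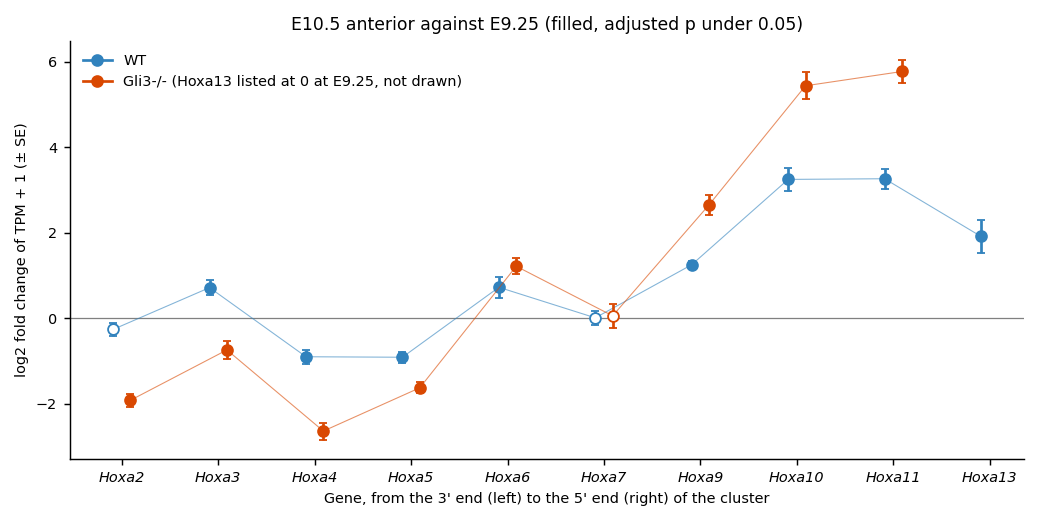
Log2 fold change of TPM + 1 between E10.5 anterior and whole E9.25 buds (vertical axis) for the HoxA genes in cluster order (horizontal axis) in WT and Gli3-/- embryos; bars are limma standard errors and filled points passed the test. Hoxa10 and Hoxa11 lie at 3.25 and 3.26 in WT and at 5.44 and 5.77 in Gli3-/-, and Hoxa4 at -0.90 and -2.64.

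Added over the cluster, HoxA expression came to 162 to 172 TPM in E9.25 WT, 130 to 202 TPM in E9.25 Gli3-/-, 351 to 389 TPM in E10.5 WT and 443 to 492 TPM in E10.5 Gli3-/- libraries. The genes from Hoxa9 to Hoxa13 made up 32.8% ± 6.93 (SD, n = 3) of this sum in WT buds at E9.25, against 11.3% ± 3.11 (SD, n = 4) for Gli3-/-. At E10.5 they made up 74.9% ± 1.79 (SD, n = 4) for WT, against 85.2% ± 2.20 (SD, n = 3) for Gli3-/-. The genes from Hoxa2 to Hoxa5 took 46.4%, 72.2%, 14.4% and 7.49% in the same order of groups. Both shares kept the genotypes apart at each stage, with every library of one genotype on the same side, and the genotype with the larger 5′ share changed between the stages. Without replicate 2 the E9.25 WT means were 31.8% for the 5′ and 46.6% for the 3′ genes (n = 2).

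**Figure D4:**
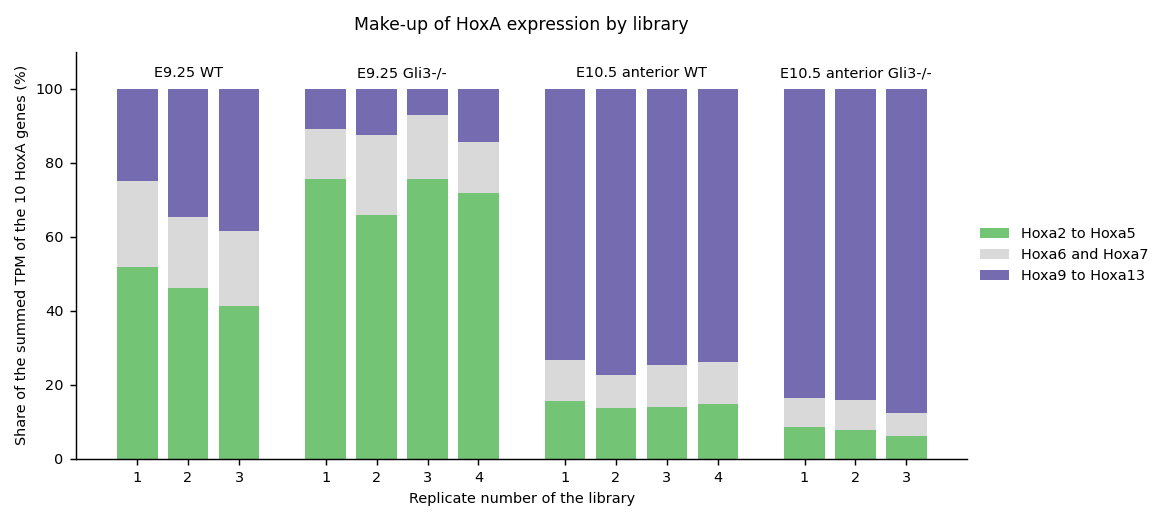
Share of the summed TPM of the 10 HoxA genes (vertical axis, percent) held by Hoxa2 to Hoxa5, by Hoxa6 and Hoxa7 and by Hoxa9 to Hoxa13 in each library (horizontal axis, replicate number within a group). The Hoxa9 to Hoxa13 part spans 25.1% to 38.5% in E9.25 WT, 7.12% to 14.4% in E9.25 Gli3-/-, 73.4% to 77.4% in E10.5 WT and 83.7% to 87.8% in E10.5 Gli3-/- libraries.

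The noncoding RNAs and neighbouring genes of the cluster were taken as a list, of which 10 of 12 were in the tables. At E9.25, 0 of 6 tested were called (median log2 fold change 0.23, as for all genes), and 0 of 5 without E9.25 WT replicate 2. Of all genes, 0.108% were called higher and 0.0271% lower at that stage. At E10.5, 2 of 8 were called higher and 1 lower (median -0.24 against -0.02), where 1.84% and 2.93% of all genes were. Hoxa11os, the antisense RNA of Hoxa11 (chr6:52244393-52249799), had 56.2 to 65.1 TPM in WT and 116 to 163 TPM in Gli3-/- anterior buds, and rose by 1.24 ± 0.12 (log2, SE, limma adjusted p = 0.000643). At E9.25 it had 1.501 to 5.55 TPM in WT and 0.0337 to 0.775 TPM in Gli3-/- buds. It overlaps Hoxa11 on the other strand, so shared reads cannot be told apart where the count took no strand. Hottip, transcribed from beyond the 5′ end next to Hoxa13, was listed at 0 in all E9.25 libraries. It had 0 to 0.207 TPM in E10.5 WT and 1.505 to 4.87 TPM in E10.5 Gli3-/- buds. It met the filter only through the E10.5 Gli3-/- libraries, where it is high. Its calls between genotypes, between the stages and in the interaction therefore add no support. Hotairm1, from the 3′ side of Hoxa2, had 3.69 to 9.04 TPM in WT and 1.14 to 2.75 TPM in Gli3-/- anterior buds and fell by 1.25 ± 0.27 (log2, SE, limma adjusted p = 0.0320). So in the E10.5 anterior buds Hoxa11os and Hotairm1 moved in the same direction as Hoxa11 and Hoxa2, the coding genes beside them. Between the stages 2 of 7 tested were called higher and 4 lower in WT (38.1% and 10.6% of all genes), and 3 of 8 higher and 4 lower in Gli3-/- (15.8% and 9.17%), with Hoxa11os up by 4.10 and 6.58 and Hotairm1 down, at -1.95 and -3.91. The WT counts were the same without E9.25 WT replicate 2. The interaction called 2 of 8 higher, Hoxa11os and Hottip, and 2 lower, Hotairm1 and Hoxaas2, where 0.477% and 1.65% of all genes were called. Without E9.25 WT replicate 2 the counts were 2 higher and 1 lower, since Hoxaas2 was not called (limma adjusted p = 0.0754).

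The TALE cofactor list held 9 genes. At E9.25, 0 of 8 tested were called, with a median log2 fold change of 0.55 against 0.23 for all genes. At E10.5, 5 of 9 were called lower in Gli3-/- and none higher, with a median of -0.73 against -0.02. Of all genes, 2.93% were called lower and 1.84% higher there. Meis1, a marker of the proximal limb, had 39.9 to 46.9 TPM in WT and 12.6 to 19.0 TPM in Gli3-/- anterior buds and fell by 1.40 ± 0.13 (log2, SE, limma adjusted p = 0.000586), and Meis3 fell by 1.28 ± 0.17 (limma adjusted p = 0.00309). Between the stages 5 of 9 were called higher and none lower in WT, where 38.1% of all genes were called higher and the list's median of 0.46 lay beside 0.34 for all genes. In Gli3-/- 5 of 9 were called lower and none higher, where 9.17% of all genes were called lower (median -0.77 against 0.06). Without E9.25 WT replicate 2 the counts were 3 of 9 higher and 1 lower in the WT stage comparison, and again 0 of 8 at E9.25. The interaction called 5 of 9 lower and none higher, with Meis3 at -2.29 and Meis1 at -1.98, where 1.65% of all genes were called lower, and again 5 without that library.

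Among 13 genes of retinoic acid and FGF signalling, 1 of 12 tested was called higher in Gli3-/- buds at E9.25 and none lower. It was Aldh1a2, which makes retinoic acid, with 8.81 to 19.0 TPM in WT and 41.7 to 65.3 TPM in Gli3-/- buds and a log2 fold change of 1.76 ± 0.26 (SE, limma adjusted p = 0.0380). The list's median was 0.19 against 0.23 for all genes, of which 0.108% were called higher and 0.0271% lower. Leaving out E9.25 WT replicate 2 again called Aldh1a2, at 1.94 (log2, limma adjusted p = 0.0270). At E10.5, 6 of 12 were called higher and 2 lower, with a median of 0.79 against -0.02. Of all genes, 1.84% were called higher and 2.93% lower there. The FGF genes of the apical ridge Fgf4 and Fgf8 rose by 2.08 ± 0.25 and 1.36 ± 0.12, and the receptor genes Rarb and Fgfr2 fell by 1.82 ± 0.24 and 0.94 ± 0.13 (log2, SE). Fgf4 had 0.502 to 1.34 TPM in WT and 5.63 to 10.4 TPM in Gli3-/- anterior buds. It met the filter only through the E10.5 Gli3-/- libraries, so its calls in any comparison add no support. Between the stages 3 of 12 were called higher and 3 lower in WT, where 38.1% of all genes were called higher and 10.6% lower, and 7 of 13 higher and 3 lower in Gli3-/-, where the shares were 15.8% and 9.17%. Leaving out E9.25 WT replicate 2 gave WT counts of 3 and 2 of 11, since Aldh1a2 fell below the filter. Aldh1a2 fell to 0 to 0.492 TPM in WT and 0 to 1.14 TPM in Gli3-/- buds at E10.5, and Cyp26b1, which degrades retinoic acid, rose from 10.05 to 25.3 TPM to 70.6 to 97.6 TPM in WT. The interaction called 3 of 13 higher and 2 lower, as it did without that library, where 0.477% and 1.65% of all genes were called.

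HoxD genes of the same paralog groups gave a comparison within the libraries. Of the 9 HoxD genes, 0 of 8 tested were called between genotypes at E9.25 (median -0.65 against 0.23 for all genes). At that stage 0.108% of all genes were called higher and 0.0271% lower. At E10.5, 4 of 8 were called higher and none lower (median 0.52 against -0.02), where 1.84% and 2.93% of all genes were. Between the stages 2 of 8 were called higher and 4 lower in WT (38.1% and 10.6% of all genes) and 4 of 9 higher and 2 lower in Gli3-/- (15.8% and 9.17%), and the interaction called 4 of 9 higher and 1 lower (0.477% and 1.65%). The counts without E9.25 WT replicate 2 were 0 of 8 at E9.25, 2 and 3 of 7 in the WT stage comparison, and 4 and 1 of 9 for the interaction. Hoxd12, counted as higher at E10.5, between the stages in Gli3-/- and in the interaction, met the filter only through the E10.5 Gli3-/- libraries. It is high there, so its calls add no support. Hoxd13 had 2.53 to 13.5 TPM in WT and 67.7 to 132 TPM in Gli3-/- anterior buds, a log2 fold change of 3.99 against 2.60 for Hoxa13. Hoxd11 had 33.8 to 64.2 TPM in WT and 173 to 226 TPM in Gli3-/- anterior buds, a log2 fold change of 2.11 against 0.80 for Hoxa11. At E9.25 Hoxd13 was measured, at 2.37 to 2.72 TPM in WT and 0.628 to 1.43 TPM in Gli3-/- buds, where Hoxa13 was at or near 0.

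For each of 6 paralog pairs, the difference between the HoxA and the HoxD gene on the log2 scale was compared between genotypes with an exact two-sided permutation test over 35 splits, in which the smallest p is 0.0286. No pair passed the threshold at either stage after adjustment over the 6 pairs. A single pair at the smallest p cannot pass after this adjustment unless several other pairs are there too, so a missed threshold says little about any one pair. At E10.5 the genotype difference of Hoxa11 was 1.30 smaller than that of Hoxd11 (hoxa minus hoxd, -1.30, exact p = 0.0286, adjusted p = 0.114), and that of Hoxa13 was 1.39 smaller than that of Hoxd13 (exact p = 0.143, adjusted p = 0.214). The pairs of groups 3 and 9 had differences of -0.14 and 0.18 at E10.5, and those of groups 4 and 10 of -0.63 and -0.36 (exact p = 0.0571 for both). At E9.25 the differences ran from -0.72 for group 11 to 0.73 for group 4, with adjusted p-values of 0.103 to 0.743 from the exact test. The exact p of 0.0286 at that stage belongs to group 13, where Hoxa13 was at or near 0, so that the difference of 0.71 is that of Hoxd13 with its sign turned. The differences ran, without E9.25 WT replicate 2, from -0.75 for group 11 to 1.01 for group 4.

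**Figure D5:**
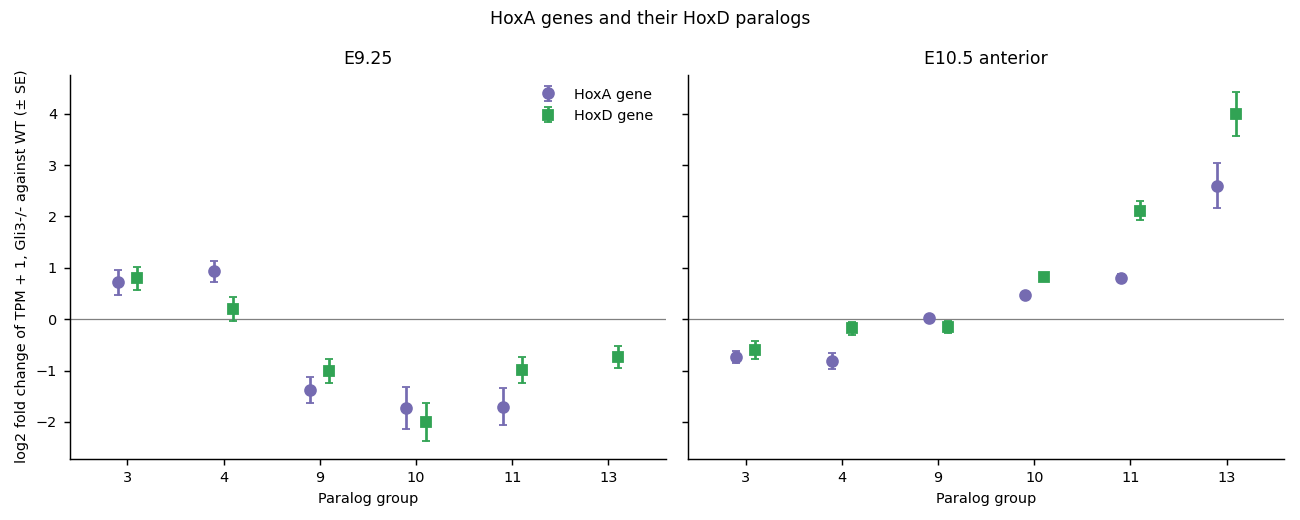
Log2 fold change of TPM + 1 between Gli3-/- and WT buds (vertical axis) for HoxA genes (circles) and HoxD genes (squares) of 6 paralog groups (horizontal axis) at E9.25 and in E10.5 anterior buds, with limma standard errors; Hoxa13 was not tested at E9.25. At E10.5 groups 11 and 13 stand at 0.80 and 2.60 for HoxA and at 2.11 and 3.99 for HoxD.

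The genes whose pattern over the 14 libraries was most like that of each member were found by Pearson's r of log2(TPM + 1) among 16358 other genes, as a description. The libraries fall into 4 groups, and these values mostly reflect the group levels. Hoxa10 and Hoxa11 shared both of their nearest genes, Tbx15 (r = 0.993 with each) and Zic5 (r = 0.991 and 0.995), and Hoxa9 was nearest to Tnfaip6 (r = 0.989) and Zic2 (r = 0.980). Hoxa13 was nearest to 9530018H14Rik (r = 0.982) and Pdzd2 (r = 0.979). At the 3′ end, Hoxa4 was nearest to its paralog Hoxb4 (r = 0.989) and to Tmem28 (r = 0.977), Hoxa2 to Hoxc4 (r = 0.969) and Gm14226 (r = 0.955), and Hoxa5 to Hoxb1 (r = 0.986) and Hotairm1 (r = 0.984). Hoxa3 had Pcdh1 (r = 0.953) among its nearest genes, and Hoxa6 was nearest to Arntl (r = 0.956) and Ppfibp2 (r = 0.947). Hoxa7 had no gene above an r of 0.848, that of Pcdhgb2, followed by Hgsnat at 0.813. Among the members themselves, r was highest for Hoxa10 with Hoxa11 (0.997) and lowest for Hoxa5 with Hoxa11 (-0.975).

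The tissue was checked against markers of the cells a forelimb bud can hold. All 7 limb mesenchyme markers had a TPM of at least 1 in every library, with summed levels of 659 to 1231 TPM, and 0 of 7 were called between genotypes at E9.25. Neural markers were low, with sums of 2.77 to 15.5 TPM, and 1 of 7 passed the filter. Surface ectoderm (7 tested), somite and muscle (3 tested), erythroid (7 tested) and anterior limb bud genes (4 tested) gave 0 calls between genotypes at E9.25. Without E9.25 WT replicate 2 they and the limb mesenchyme markers again gave 0 calls, with 2 somite and muscle markers tested. Of all genes, 0.108% were called higher and 0.0271% lower at that stage, so 0 calls in lists this small say little. The summed surface ectoderm level at E9.25 was 156 to 237 TPM in WT and 215 to 355 TPM in Gli3-/- buds. At E10.5 the endothelial, erythroid and neural lists and the 3 tested flank markers gave 0 calls. There, 1.84% of all genes were called higher and 2.93% lower.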

How the data were processed

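RNA was extracted from pooled forelimb buds, and the authors sequenced single reads of 100 bases and aligned them with HISAT2. The genome build mm10 is given in the submitters' processing notes, and the program that made the gene values is not given in the sources used here. For each library the authors deposited a table with the coverage of each gene (mean read depth per base), its FPKM and its TPM, which has the same sum in each library. Read counts were not analysed here. Values of gene IDs listed more than once were summed. Coverage and FPKM served to estimate the reads per library, and TPM was used for every comparison.

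Genes that reached a TPM of 1 in 3 or more libraries of a comparison were fitted on log2(TPM + 1) with limma 3.58.1 in R 4.3.3 (lmFit, eBayes with trend), two-sided, with Benjamini-Hochberg adjustment over all genes tested and a threshold of 0.05. Fold changes on this scale understate the change of low genes. A list gene below the filter in a group was tested only through the group where it is high, and its call adds no support. The pipeline was tested on simulated data. The study tested counts with DESeq2, which TPM does not allow. Nothing in the labels says that libraries came from separate litters, and p-values measure the spread between these pooled libraries. The members, the gene lists and the alternatives were chosen with earlier results of these data known. Named beside the members were the list genes past the threshold with the 2 largest fold changes per list and direction (not all of them are printed), Gli3, the HoxD paralogs and the 2 nearest genes of each member, of which 1 is not reported here. The permutation tests ran in SciPy 1.17.1 under Python 3.11.15, the tables were handled with NumPy 2.4.6 and pandas 2.3.3, and matplotlib 3.10.9 drew the plots. A planned comparison of homeodomains was not made, as protein sequences were not used here. Chromatin data of the series were not used here.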

Additional observations from a re-analysis of the deposited data

Results flagged for a closer look

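The genotype difference changed between E9.25 and E10.5 for 7 members by the interaction test in all 14 libraries. On the log2 scale, the change was -1.66 for Hoxa2, -1.46 for Hoxa3 and -1.74 for Hoxa4, and 1.40 for Hoxa9, 2.19 for Hoxa10, 2.51 for Hoxa11 and 2.63 for Hoxa13. Hoxa13 was at or near 0 in every E9.25 library and met the filter only through the E10.5 libraries. Its value is that of E10.5, and its call adds no support. The stages also differ in the part of the bud taken, so that stage and tissue cannot be told apart in these values. No library stood apart from the rest of its group of 4 in the TPM of a member, in 19 gene and group pairs examined, of which chance marks about 1 in 20.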

How the results depend on the processing

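Of the counts of calls under other settings, 94 stayed within 1.5 times the value in the report and 12 did not. At E9.25, where no member was called, quantile normalization called 1 member, size factors by the median of ratios 1, weights for sample quality 2 and a single model of all 14 libraries 4, while a pseudocount of 0.1, no filter, a TPM filter of 5 and eBayes without a trend called 0. Over all genes, the fit in the report called 20 of 14760 there. Quantile normalization, size factors and weights called 30, 26 and 53 of 14760, and the single model called 796 of 16368. At E10.5, where 6 were called, a single model called 3, and for the interaction, where 7 were called, no filter left 4. The causes were not tested. Leaving out each library in turn gave 0 to 3 members at E9.25, 5 to 6 at E10.5, 6 to 8 between the stages in WT, 7 to 9 in Gli3-/- and 4 to 8 for the interaction. No paralog pair passed in these, where the exact test of 6 libraries cannot reach the threshold, and so says nothing about stability. Hoxa13 fell below the filter in the Gli3-/- stage comparison without any one of the E10.5 libraries.

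The replicate numbers of the titles were tried as a replicate block, since the groups share them. Deviations of same-numbered libraries correlated at -0.199 to -0.161 at E9.25 and at -0.180 to 0.153 at E10.5. Other-numbered pairs had a mean of 0.06 and 0.018. With so few libraries, and deviations that cancel within each group, this cannot tell whether same-numbered libraries shared a litter or batch. With the block 1 member was called at E9.25, Hoxa11, and 3 at E10.5, Hoxa2, Hoxa11 and Hoxa13, and the counts were 7 and 9 between the stages in WT and Gli3-/- and 6 for the interaction. Over all genes, the block called 66 of 14760 at E9.25 and 164 of 15654 at E10.5.

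Signs changed only for differences near 0. For Hoxa7 the WT stage difference was -0.29 with quantile normalization, -0.32 with size factors and -0.0032 with the replicate block, and -0.060 to 0.14 without single libraries. In Gli3-/- it was -0.022, -0.0097 and -0.035 under the same settings, and -0.12 to 0.32 without single libraries. The interaction of Hoxa7 was -0.031 with the replicate block and -0.13 to 0.31 without single libraries. The E10.5 genotype difference of Hoxa6 was -0.035 to 0.22, and the Hoxa3 minus Hoxd3 difference at E9.25 was -0.27 to 0.13, without single libraries.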
